A study of Drosophila melanogaster with 20 samples.

Results

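The nuclear genes of the mitochondrial respiratory chain and ATP synthase were followed in the eye discs of Drosophila larvae with and without a human proinsulin transgene. Members were taken by symbol on the array platform, as every gene whose symbol begins with ND- (complex I), Sdh (complex II), UQCR- (complex III), COX followed by a digit (complex IV) or ATPsyn (complex V), together with RFeSP, ox and Cyt-c1 of complex III. ATPsynbeta and ND-49 were left out by this rule. It found 78 of the genes on the array. Of these, 75 had a probe set that detects 1 gene, out of 11981 genes with such a probe set. ATPsynG, COX6B and ND-AGGG were matched only by probe sets shared with other genes and are given no value. Each gene is represented by its probe set of highest mean. Of the 75 genes, 56 passed the filter on low values and were tested, namely 27 of 32 in complex I, 4 of 7 in complex II, 8 of 9 in complex III, 7 of 14 in complex IV and 10 of 13 in complex V.

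Complex I (NADH dehydrogenase) and complex II (succinate dehydrogenase) feed electrons into the inner mitochondrial membrane, complex III passes them to cytochrome c, and complex IV (cytochrome c oxidase) hands them to oxygen. Complexes I, III and IV pump protons as they do so, and complex V, the ATP synthase, uses the returning protons to make ATP. Most subunits are encoded in the nucleus and imported into the organelle. The developing fly eye needs the chain: loss of single subunits is known to stall disc cells in their cycle or to damage photoreceptors.

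Proinsulin is the precursor of insulin, and the C96Y form lacks a cysteine that takes part in a disulphide bond, so that the protein misfolds in the endoplasmic reticulum. Eye imaginal discs, the larval tissue that becomes the adult eye, were dissected from Drosophila melanogaster larvae at the wandering stage of the third instar and measured on 20 Affymetrix arrays. There were 5 lines. WT-6 and WT-24 carried human wild-type proinsulin, Mut-1 and Mut-101 carried C96Y proinsulin, and a line listed as non-transgenic carried, per its labels, GMR-GAL4 alone. Each line was measured as 2 biological replicates of males and 2 of females, which gives 8 arrays with C96Y, 8 with wild-type proinsulin and 4 with no proinsulin transgene. Transgenes were hemizygous under GMR-GAL4, which is active mainly behind the morphogenetic furrow of the eye disc. Cells ahead of the furrow and cells of the antennal part would then largely lack the transgene product. Where the transgene was expressed was not measured in these bulk samples. With 2 insertion lines per transgene, the place of insertion and the level of expression are sampled only at 2 points each. Fewer cells of a type and less RNA per cell cannot be told apart in such bulk samples.

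The mean intensity of an array was 1194 to 1250 units and its median 213 to 286, with the highest median in Mut-101 male replicate 2. All 10 eye disc markers (such as ey, toy, eya and elav) were above the filter. The summed intensity of 3 fat body markers was over 10000 units on 2 arrays, namely 30349 in non-transgenic male replicate 2 and 20810 in WT-24 female replicate 1. Member counts for C96Y against wild-type proinsulin, for C96Y against non-transgenic discs and between the sexes are given with and without them. Other comparisons, lists and overlap counts were not redone without both arrays. Differences are on the log2 scale with standard errors (SE) from limma, adjusted by the Benjamini-Hochberg method over 10262 probe sets, and a gene is called higher or lower at an adjusted p under 0.05. The geometric means of the tested members ran from 164 units (ND-B8) to 12552 units (ATPsynC), where the lowest of any tested probe set was 158. The median residual SD within a line and sex was 0.057 for members against 0.10 for all probe sets tested.

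In C96Y discs 11 of the 56 tested members were higher than in wild-type proinsulin discs and 0 were lower. The members called were ATPsynCF6 and ATPsynO of the ATP synthase, RFeSP, ox and UQCR-Q of complex III, COX8 and COX7B of complex IV, and ND-B22, ND-39, ND-B12 and ND-B14 of complex I. They made up 19.6% of the members, against 20.1% of all probe sets called in this comparison, 11.5% higher and 8.59% lower, so the share of members called was near the background. The differences were small for most members. Their median was 0.040 on the log2 scale against -0.0028 over all probe sets, 42 had a positive and 14 a negative difference, and 48.8% of all probe sets had a positive one. Of the 45 members not called, 26 had a 95% interval inside 0.1 log2 units on either side of 0 and 40 had one inside 0.2.

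**Figure D1:**
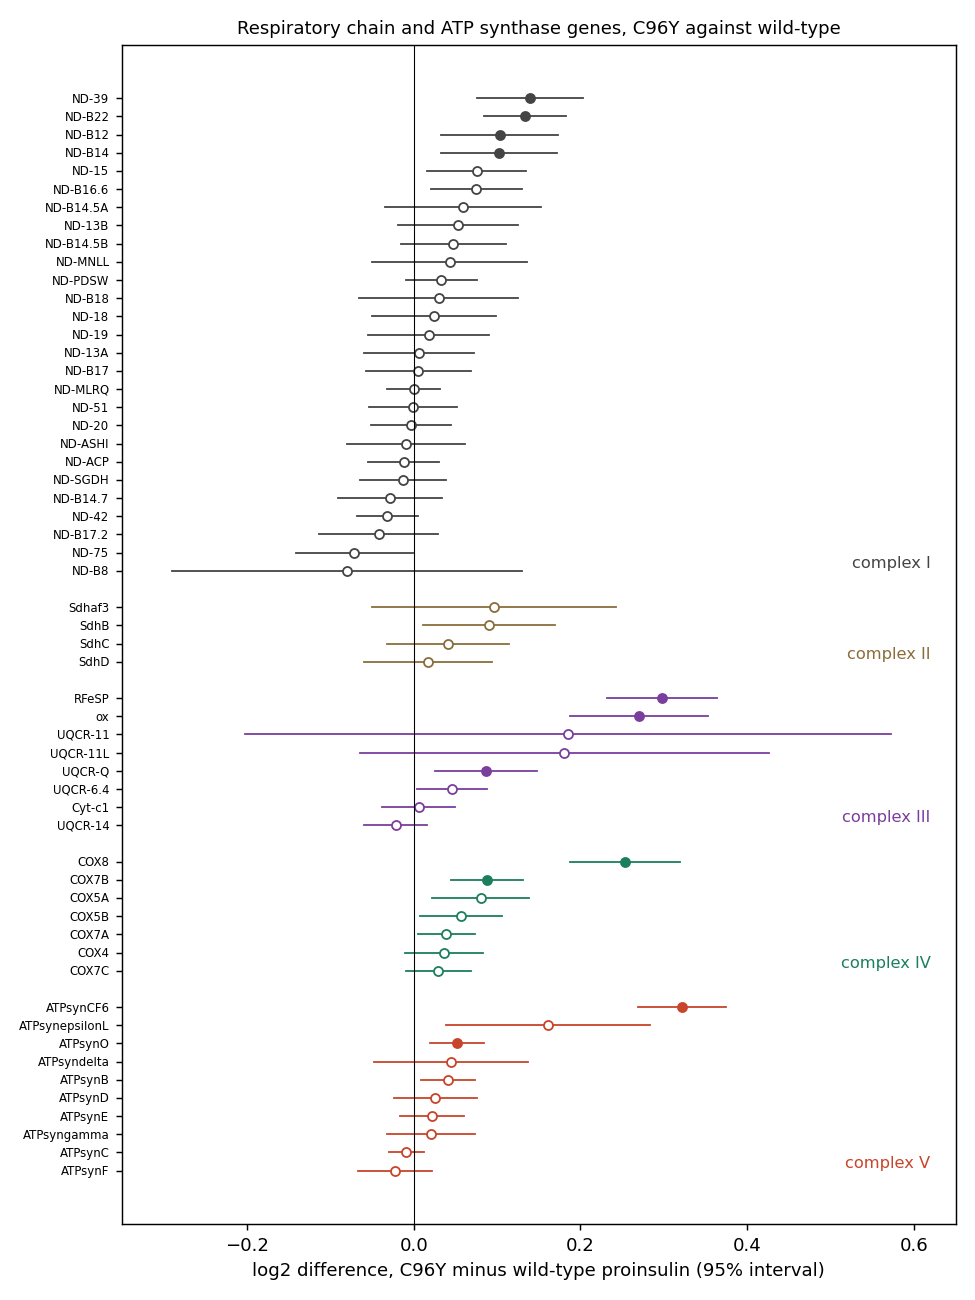
Difference between C96Y and wild-type proinsulin discs for the 56 tested members, grouped by complex, on a log2 scale. Points are limma estimates over 8 against 8 arrays, bars are 95% intervals, and filled points are the 11 members called. ATPsynCF6, RFeSP, ox and COX8 lie between 0.25 and 0.32, and most other members lie near 0.

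The largest difference was that of ATPsynCF6, which encodes coupling factor 6 of the peripheral stalk that holds the ATP synthase head in place. Its intensity had a lowest, median and highest value of 6952, 7214 and 7673 units in the 8 C96Y arrays and of 5297, 5845 and 6192 in the 8 wild-type arrays. The non-transgenic arrays gave 6223, 6148, 5954 and 5477 units. Every C96Y array therefore lay above every other array. The difference from wild-type proinsulin was 0.32 ± 0.025 (SE), a fold of 1.25, with limma's adjusted p = 1.58e-06.

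RFeSP encodes the Rieske iron-sulphur protein, one of the redox subunits of complex III. Its intensity ran from 2292 over a median of 2372 to 2539 units in C96Y arrays and from 1792 over 1925 to 2166 in wild-type arrays. The non-transgenic arrays gave 2030, 1979, 2059 and 2150 units. C96Y arrays again lay above all others, and wild-type and non-transgenic arrays overlapped. The difference from wild-type proinsulin was 0.30 ± 0.031 (SE), a fold of 1.23 (limma, adjusted p = 2.70e-05). RFeSP has a second probe set that is dim (90.4 units, below the filter), on which the difference was -0.074.

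COX8 encodes a small nuclear subunit of cytochrome c oxidase. It ran from 4802 over a median of 4955 to 5193 units in C96Y arrays and from 3945 over 4115 to 4608 in wild-type arrays. The non-transgenic arrays gave 4259, 4534, 4322 and 4274 units. No C96Y array fell to the level of another genotype, and the difference from wild-type proinsulin was 0.25 ± 0.031 (SE), a fold of 1.19 (limma, adjusted p = 0.000101).

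The gene ox encodes a small subunit of complex III. Its intensity ran from 3463 over a median of 3903 to 4500 units in C96Y arrays and from 3179 over 3247 to 3597 in wild-type arrays. Here 1 wild-type array, WT-6 female replicate 1, reached into the C96Y range. The non-transgenic arrays gave 3403, 3784, 3986 and 3499 units and overlapped with both groups. The difference from wild-type proinsulin was 0.27 ± 0.039 (SE), a fold of 1.21 (limma, adjusted p = 0.000385).

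**Figure D2:**
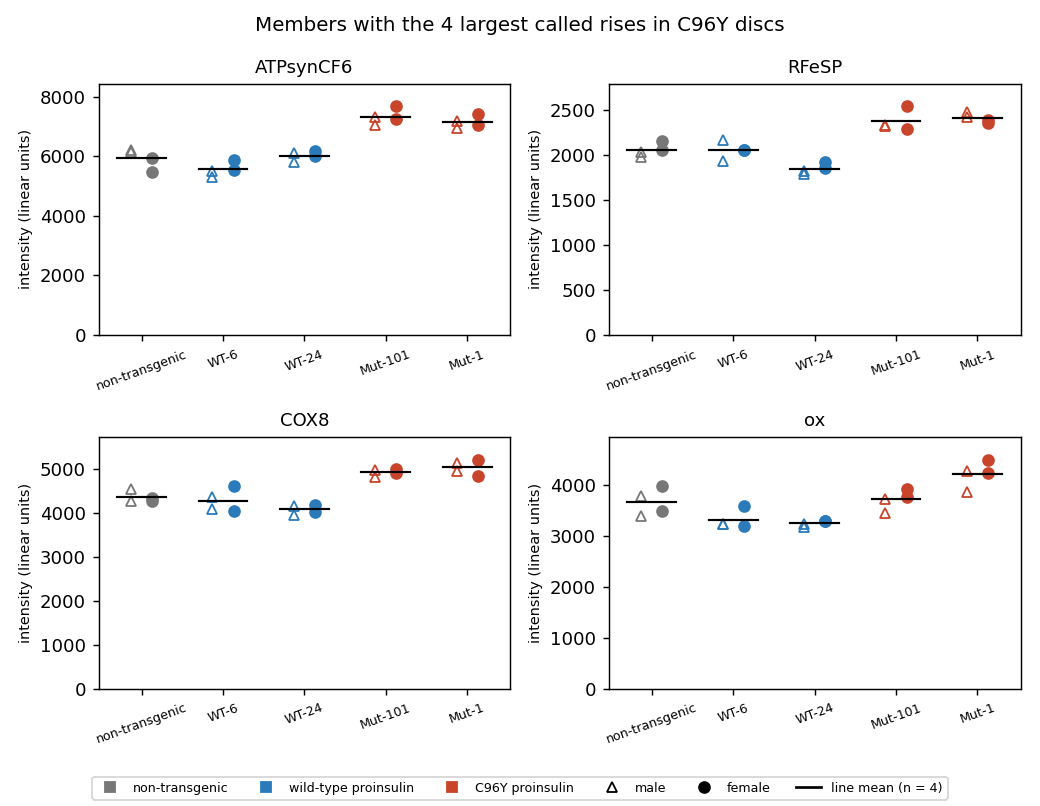
Intensity of ATPsynCF6, RFeSP, COX8 and ox on each of the 20 arrays by line, in linear units from 0. Triangles are males, circles are females, and bars are the means of the 4 arrays of a line. In the panels of ATPsynCF6, RFeSP and COX8 all C96Y points lie above all other points. In the panel of ox the points of both Mut-101 and Mut-1 overlap the non-transgenic ones.

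Over all members, 4 of 56 (7.14%) had every C96Y array above every wild-type array, namely ATPsynCF6, RFeSP, COX8 and ND-B22, and the same 4 lay above all 12 other arrays. Over all probe sets the shares were 2.28% and 1.64%. No member had every C96Y array below every wild-type array, where the share over all probe sets was 0.692% (0.37% below all 12 other arrays).

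In complex I, 4 of 27 tested members (14.8%) were higher in C96Y than in wild-type proinsulin discs and 0 were lower. Over all probe sets 11.5% were higher and 8.59% lower. The median over the 27 was 0.018. ND-B22 encodes an accessory subunit of the membrane arm (NDUFB9 in mammals). It ran from 6301 over 6502 to 6782 units with C96Y and from 5709 over 5988 to 6150 units with wild-type proinsulin, a difference of 0.13 ± 0.023 (SE; limma, adjusted p = 0.00153). The 2 groups did not overlap. ND-39 (the homologue of NDUFA9) differed by 0.14 ± 0.029 (SE; limma, adjusted p = 0.00507), and ND-B12 and ND-B14, also accessory subunits, by 0.10 each (limma, adjusted p = 0.0397 and 0.0411). The calls of ND-B12 and ND-B14 were lost without any of 12 single arrays. Just outside the threshold was ND-B16.6 at 0.075 (limma, adjusted p = 0.0516). The lowest differences were those of ND-B8, -0.080 ± 0.097 (SE), and of ND-75, the large iron-sulphur subunit that takes part in electron entry, -0.071 ± 0.032 (SE). Neither was called.

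In complex II none of 4 tested members was called by limma, where 20.1% of all probe sets were, and 1 had an unadjusted p under 0.05. That gene, SdhB, encodes the iron-sulphur subunit and differed by 0.090, with a 95% interval from 0.011 to 0.17 (limma, adjusted p = 0.105). The membrane anchors SdhC and SdhD differed by 0.041 and 0.017, and Sdhaf3, an assembly factor that the symbol rule takes in, by 0.096. For SdhD the sign changed without any 1 of 3 arrays, so its direction is not settled.

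In complex III, 3 of 8 tested members (37.5%) were higher and 0 lower, where 11.5% of all probe sets were higher and 8.59% lower. Beside RFeSP and ox, UQCR-Q, which encodes a small subunit close to cytochrome b, was called at 0.086 ± 0.028 (SE; limma, adjusted p = 0.0482), a call lost without any of 14 single arrays. Cyt-c1, the haem subunit that reduces cytochrome c, differed by 0.0058 ± 0.020 (SE). RFeSP and Cyt-c1 are both redox subunits of complex III, and their 95% intervals did not overlap. UQCR-6.4 and UQCR-14, both small subunits, differed by 0.046 and -0.022 and were not called.

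In complex IV, 2 of 7 tested members (28.6%) were higher and 0 lower, where 11.5% of all probe sets were higher and 8.59% lower. All 7 differences were positive, from 0.029 to 0.25, where 48.8% of all probe sets had a positive one. COX7B differed by 0.088 ± 0.020 (SE; limma, adjusted p = 0.00790), and a second probe set of the gene gave 0.12. COX5A, a subunit on the matrix side, differed by 0.080 and lay just outside the threshold (limma, adjusted p = 0.0510). COX5B, the zinc-binding subunit, differed by 0.057, and COX4, COX7A and COX7C by 0.029 to 0.039.

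In the ATP synthase 2 of 10 tested members (20%) were higher and 0 lower, where 11.5% of all probe sets were higher and 8.59% lower. After ATPsynCF6 came ATPsynO, which encodes the protein that joins the stalk to the head of the enzyme, at 0.052 ± 0.015 (SE; limma, adjusted p = 0.0295), a call lost without any of 8 single arrays. ATPsynB and ATPsynD, further stalk subunits, differed by 0.041 and 0.026 and were not called. The difference of ATPsynC, which encodes the proton-carrying rotor ring, was -0.0091 ± 0.0098 (SE). The stalk subunits thus had differences from 0.026 to 0.32 within 1 part of the enzyme. ATPsynepsilonL, a copy of the epsilon subunit gene, differed by 0.16 ± 0.057 (SE) and was not called (limma, adjusted p = 0.0635).

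These errors come from replicate arrays within each line and sex. With 1 mean per line as the replicate, an alternative added after the data were seen, limma called 0 of 10262 probe sets and 12 members had an unadjusted p under 0.05. With each array centred on its median, 4 members were called in place of 11, where 5.89% of all probe sets were. The 4 were ATPsynCF6, RFeSP, COX8 and ox. Without the 2 arrays high in fat body transcripts 8 were called (16.4% of all probe sets were), and ND-B12, UQCR-Q and ATPsynO were lost.

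Against non-transgenic discs, C96Y discs had 5 members higher and 1 lower, 10.7% of the 56, where 11.5% of all probe sets were called (6.8% higher and 4.75% lower). ATPsynCF6 (0.28 ± 0.030, SE; limma, adjusted p = 6.12e-05), RFeSP (0.22), COX8 (0.19) and ND-B22 (0.13) were higher here too, against a different set of control arrays but with the same C96Y arrays. For ox the difference was 0.11 ± 0.047 (SE), which was not called (limma, adjusted p = 0.135). Against these 4 arrays 5 members had every C96Y array above (8.93%, with 3.46% of all probe sets) and 1 had every C96Y array below (1.79%, with 1.81%). ATPsynepsilonL had a lowest, median and highest intensity of 544, 588 and 659 units in C96Y arrays, and the non-transgenic arrays gave 425, 444, 531 and 520 units. The C96Y arrays all lay above the non-transgenic ones, and the difference was 0.30 ± 0.070 (SE; limma, adjusted p = 0.0137). The member called lower was ND-75, with 4430, 4365, 4759 and 4394 units in non-transgenic arrays and a range of 3765 to 4270 units with C96Y, groups that did not overlap. It differed by -0.18 ± 0.040 (SE), a fold of 0.884 (limma, adjusted p = 0.0126). Without the 2 arrays high in fat body transcripts 3 members were called, and neither ATPsynepsilonL (0.32, adjusted p = 0.0601) nor ND-75 (-0.18, adjusted p = 0.0611) was among them. The call of ND-75 was also lost without non-transgenic female replicate 1 (-0.15, adjusted p = 0.0544), and that of ATPsynepsilonL without non-transgenic female replicate 2 (0.30, adjusted p = 0.0603).

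Wild-type proinsulin against non-transgenic discs gave 0 member calls in limma, where 0.107% of all probe sets were called (0.0487% higher and 0.0585% lower), and 4 members had an unadjusted p under 0.05. The differences were negative for 43 of 56 members, among them all 8 of complex III and all 7 of complex IV, with a median of -0.029. Over all probe sets tested 47.4% of differences were positive, and their median was -0.0043. The lowest was that of ox, -0.16 ± 0.047 (SE; limma, adjusted p = 0.460). The difference of ox between C96Y and wild-type proinsulin was thus made up of 0.11 above and 0.16 below the non-transgenic mean, while that of ATPsynCF6 was made up of 0.28 above and 0.039 below. Intervals in this comparison were wider: 22 of the 56 lay inside 0.1 log2 units of 0 and 51 inside 0.2.

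Both C96Y lines were set against the same 8 wild-type arrays. Mut-1 had 12 members higher and 0 lower (21.4% of the 56, against 17.9% of all probe sets called, 9.89% higher and 8.03% lower), and Mut-101 had 5 higher and 0 lower (8.93%, against 7.38%, 4.78% higher and 2.59% lower). ATPsynCF6 stood 0.30 above the wild-type lines in Mut-1 and 0.34 in Mut-101. RFeSP stood 0.31 and 0.29 above them, and COX8 0.27 and 0.24. ND-B22 was 0.16 higher in Mut-1 and 0.11 higher in Mut-101. For ox the values were 0.36 ± 0.047 (SE) in Mut-1 and 0.18 ± 0.047 (SE) in Mut-101, both called by limma (adjusted p = 0.000160 and 0.0370). The direct contrast of the 2 lines for ox, 0.18, was not called. Complex I had a median difference of 0.045 in Mut-1 and of -0.0065 in Mut-101.

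Tested directly, Mut-1 and Mut-101 differed in 1 member (1.79% of the 56, against 3.49% of all probe sets, 2.16% higher and 1.33% lower in Mut-1), and WT-24 and WT-6 differed in 1 (1.79%, against 0.955%, of which 0.594% higher and 0.361% lower in WT-24). It was Sdhaf3 in both contrasts, the assembly factor that takes part in maturing the iron-sulphur subunit of succinate dehydrogenase. Males and then females of each line gave 2388, 2359, 2740 and 2509 units in Mut-1, and 1729, 1463, 1699 and 1922 units in Mut-101. They gave 2575, 2650, 2174 and 2141 units in WT-24, and 1472, 1546, 1678 and 1550 units in WT-6. Mut-1 and WT-24 were thus high and Mut-101 and WT-6 low, with no overlap between the 2 lines of a transgene. The non-transgenic arrays, at 2297, 1795, 2065 and 1529 units, overlapped with WT-24, Mut-101 and WT-6. Mut-1 exceeded Mut-101 by 0.56 ± 0.096 (SE; limma, adjusted p = 0.00504) and WT-24 exceeded WT-6 by 0.61 ± 0.096 (SE; limma, adjusted p = 0.00505). Both calls were lost with the number in the sample descriptions as a block (limma, adjusted p = 0.387 and 0.998), and that between WT-24 and WT-6 also with arrays centred on their medians (adjusted p = 0.0571). Those numbers overlap only in part between the 2 lines of a transgene, so this block takes up part of the contrast between lines. Leaving out arrays apart, the differences were at least 0.54 and 0.59 under every alternative, this block included. The pooled difference of Sdhaf3 between C96Y and wild-type proinsulin turned negative without Mut-1 (-0.18) and without WT-6 (-0.21).

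A further case concerned 1 array and was picked out after its values were seen. UQCR-11, a small subunit of complex III, was at 1300 units in Mut-101 male replicate 2 and between 401 and 672 in the other 19 arrays, and its copy UQCR-11L was at 335 units in the same array. Both had wide intervals in C96Y against wild-type proinsulin, that of UQCR-11 running from -0.20 to 0.57, and neither was called. Without this array 12 members were called in C96Y against wild-type proinsulin. The share of all probe sets called was 14.5% to 21% over the 20 arrays left out in turn.

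**Figure D3:**
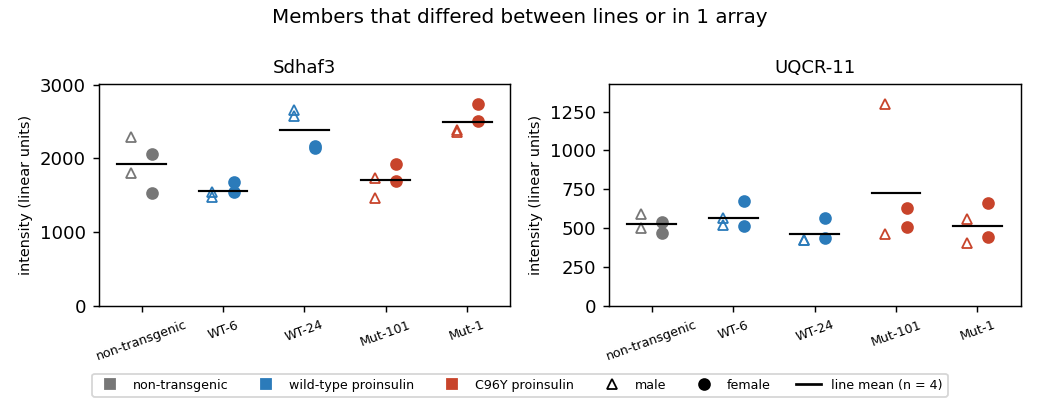
Intensity of Sdhaf3 and UQCR-11 on each of the 20 arrays by line, in linear units from 0, with triangles for males, circles for females and bars for the mean of the 4 arrays of a line. Sdhaf3 is high in WT-24 and Mut-1 and low in WT-6 and Mut-101, and UQCR-11 has 1 array at 1300 units.

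The sexes were compared over all 5 lines with equal weight. In males 2 members were higher and 3 lower than in females (8.93% of the 56, against 12.3% of all probe sets, 7.76% higher and 4.56% lower). ND-18 (the homologue of NDUFS4) had a lowest, median and highest intensity of 2952, 3022 and 3093 units in males and of 2487, 2755 and 3142 units in females. Only 1 female array, Mut-1 replicate 1, reached the male range, and the difference was 0.14 ± 0.031 (SE; limma, adjusted p = 0.0127). ND-B16.6 (the homologue of NDUFA13) differed by 0.094 ± 0.022 (SE; limma, adjusted p = 0.0183), which was -0.0035 when arrays were centred on their medians. Lower in males were ATPsynC (-0.056), Cyt-c1 (-0.073) and ATPsynD (-0.071). ATPsynC ran from 11875 over 12385 to 12609 units in males and from 12502 over 12719 to 13141 in females, so the sexes overlapped. The call of ATPsynD was lost without any of 12 single arrays, and that of Cyt-c1 without Mut-101 female replicate 2 (-0.069, adjusted p = 0.0521). Without the 2 arrays high in fat body transcripts 3 of the 5 calls were made, and ND-18 (0.13, adjusted p = 0.0530) and ATPsynD (-0.079, adjusted p = 0.0724) were lost.

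ND-18 and ND-B16.6 lie on the X chromosome. Of 10 X-linked members tested 2 were higher in males and 0 lower, where 11.3% of all X-linked genes tested were higher and 21.4% lower. Of 46 autosomal members 0 were higher and 3 lower in males, where 5.63% and 1.66% of all autosomal genes were. With arrays centred on their medians the sex calls were 0 higher and 6 lower, where 6.97% of all probe sets were called. The median of all probe sets then moved from 0.023 to -0.075. Of the 5 differences called above only that of ND-B16.6 changed sign, to -0.0035. The other 4 kept their sign under each alternative run.

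Within each sex, C96Y against wild-type proinsulin gave 5 members higher in males (8.93%, against 8.13% of all probe sets, 5.6% higher and 2.52% lower) and 8 in females (14.3%, against 6.55%, 4.1% higher and 2.45% lower), with 0 lower in either. ATPsynCF6 differed by 0.33 in males and 0.32 in females, RFeSP by 0.31 and 0.28, COX8 by 0.26 and 0.24, and ox by 0.25 and 0.29. The difference between the sexes was tested as an interaction. It gave 0 calls in limma among members and among all probe sets, and 1 member, UQCR-6.4 (-0.13 ± 0.039, SE), had an unadjusted p under 0.05.

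Other genes of energy metabolism were read from lists kept apart from the members. In C96Y against wild-type proinsulin 20.1% of all probe sets were called, 11.5% higher and 8.59% lower, and the list counts are to be read beside these shares. In glycolysis, 7 of 9 tested genes were higher with C96Y than with wild-type proinsulin, 0 were lower, and the median was 0.19, against 0.040 over the respiratory members and -0.0028 over all probe sets. Pfk, the committed enzyme of the pathway, was 0.52 ± 0.033 (SE) higher (limma, adjusted p = 2.43e-07). Pgi, which acts just before it, was 0.22 higher, and Ald1 (aldolase), just after it, 0.24 higher, though a second probe set of Ald1 gave -0.046. Against non-transgenic discs 6 of the 9 were higher, where 6.8% of all probe sets were. In the tricarboxylic acid cycle list 2 of 10 were higher and 1 lower, with a median of -0.019. The 2 were Idh, the NADP-dependent isocitrate dehydrogenase (0.087), and Scsalpha1 (0.084), and the gene lower was ScsbetaA (-0.13), both of the latter encoding subunits of succinyl-CoA synthetase. The call of Scsalpha1 was lost without any of 11 single arrays.

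**Figure D4:**
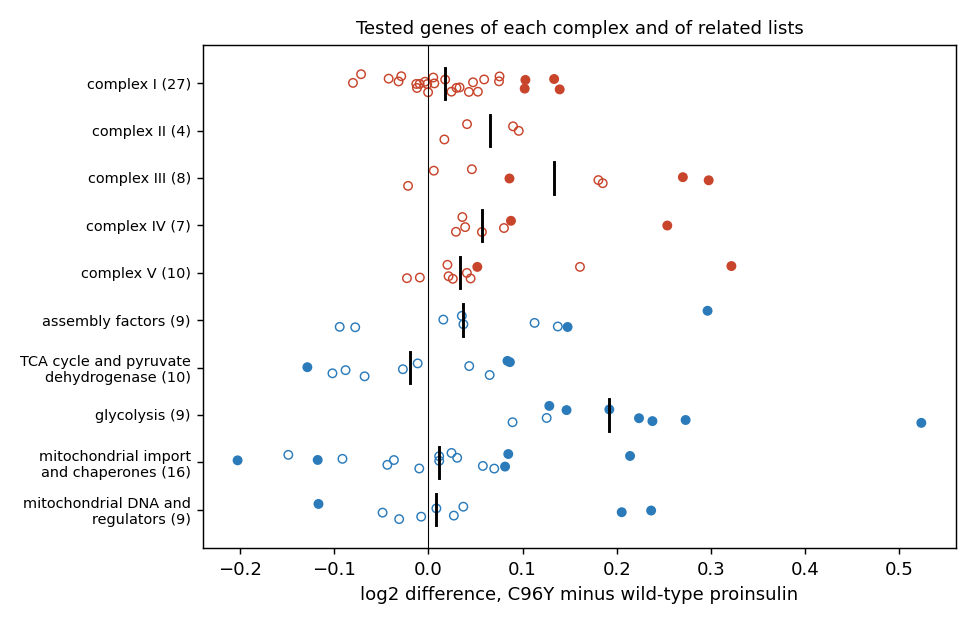
Differences between C96Y and wild-type proinsulin discs on the log2 scale for the tested genes of each respiratory complex (red) and of 5 related lists (blue), with the number of genes in parentheses. Each circle is a gene, filled where limma called it, and black bars are medians. The glycolysis genes have a median of 0.19, and the medians of the complexes lie between 0.018 and 0.13.

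Of 5 tested respiratory genes that carry other names, 2 were higher, namely cype (0.11) and levy (0.12), both cytochrome c oxidase subunits, and blw, the alpha subunit of the ATP synthase, differed by -0.039 and was not called. Of 9 assembly factors 2 were higher (22.2% called, near the 20.1% of all probe sets). Cox17, the copper chaperone of cytochrome c oxidase, differed by 0.30 ± 0.040 (SE; limma, adjusted p = 0.000228), and Surf1, also of complex IV assembly, by 0.15 (limma, adjusted p = 0.0339), a call lost without any of 12 single arrays.

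Import and chaperone genes were mixed, with 3 of 16 higher and 2 lower (31.25% called, against 20.1% of all probe sets). Tom40, the pore of the outer membrane, was lower by 0.20 on the log2 scale (difference -0.20 ± 0.031, SE; limma, adjusted p = 0.000698), and the protease gene Lon was 0.21 and the chaperone gene Hsc70-5 0.085 higher. Of 9 genes for mitochondrial DNA and its regulators 2 were higher, namely mtSSB, the single-strand binding protein (0.21), and PolrMT, the mitochondrial RNA polymerase (0.24), and mTerf3 was lower (-0.12). Single arrays decided several of these calls, which were lost without any of 10 arrays for Hsc70-5, 6 for mTerf3, 5 for Lon and 2 for PolrMT (WT-6 female replicate 1 and Mut-101 female replicate 2). Among ribosomal protein genes, 16 of 69 mitochondrial ones were higher and 6 lower (31.9% called), with a median of 0.032. Of 38 cytosolic ones 6 were higher and 0 lower (15.8% called), with a median of 0.0063. The share of all probe sets called was 20.1%.

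Markers of cells in and around the eye disc also moved between these genotypes. Over all probe sets 11.5% were higher and 8.59% lower with C96Y than with wild-type proinsulin. Of the 10 eye disc markers 5 were lower with C96Y than with wild-type proinsulin, and the sum of all 10 ranged from 44082 to 48282 units against 45737 to 52071. Cuticle and tracheal markers were lower, with sums of 4565 to 6151 against 6979 to 8757 units for 3 cuticle and peripodial markers (3 of 3 lower) and of 12354 to 15367 against 14706 to 17086 for 3 tracheal ones (3 of 3 lower). The 4 neuroblast and brain markers (2 lower) summed to 3374 to 4236 against 4391 to 5573 units, and the 3 antennal disc markers (2 lower) to 5730 to 6464 against 6385 to 6793. The 4 glial markers, of which 1 of 3 tested was higher, summed to 3240 to 3947 against 2992 to 3444 units. Of 6 haemocyte markers 1 was higher and 1 lower, with sums of 14340 to 20701 against 10855 to 23967 units. Fat body, muscle, salivary gland and ring gland markers gave no call in limma, with 1 unadjusted p under 0.05 among them. Their sums ranged over 1487 to 7475 against 493 to 20810 units for fat body, 4075 to 10362 against 4451 to 10761 for muscle, 4047 to 32138 against 6641 to 30983 for salivary gland and 597 to 1284 against 603 to 5938 for ring gland. None of these markers was listed at 0 on any array. Their part in the differences of the respiratory genes was not tested.

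The 19 members below the filter all have symbols that mark them as copies of another subunit gene, such as COX7AL, SdhBL, ATPsynCF6L and ND-51L1. Of 21 such copies only UQCR-11L and ATPsynepsilonL were tested. The geometric means of the 19 lay between 57.7 and 148 units, and the lowest geometric mean of any tested probe set was 158. Fitted with no filter, 1 of the 19 was called, higher with C96Y than with wild-type proinsulin, where 11% of all 17104 probe sets were called. It was COX7AL, a copy of a complex IV subunit gene, with 169, 213, 120 and 155 units in the Mut-1 arrays and a range of 100 to 122 in those of Mut-101. The wild-type proinsulin arrays ran from 80.8 to 121 units, so those of Mut-101 lay largely within their range. Mut-1 was also above Mut-101 for this gene, the 1 of the 19 called where 2.06% of all probe sets were. ND-B14.5AL was the 1 copy called between the sexes, higher in males, where 8.9% of all probe sets were called.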

How the data were processed

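The authors deposited 1 intensity per probe set and array, on a linear scale. Per the submitters' processing notes the summary was made with MAS5, with no version or settings stated, so the scaling target is not given in the sources used here. The intensity values of a probe set depend on its affinity, so deposited values were compared between arrays and not between genes, and no detection call was used. The number of arrays limits the precision. Per the labels' protocols, RNA was amplified before labelling.

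Array controls (183 of 18952 probe sets) were left out. The platform table names 1 gene for 13646 probe sets, several for 402 and none for 4721. Its Entrez identifiers were matched to a RefSeq gene table (Release 6 plus ISO1 MT), which also gave chromosomes, for 13543 probe sets, and 0 symbols changed. Of 17104 probe sets (1 per gene, and those with no single gene) the upper 60% by mean log2 were tested, 10262 in all, 8009 of them named. limma 3.58.1 in R 4.3.3 was fitted to log2 intensity with no pseudocount, with a mean for each of the 10 groups of line and sex, using eBayes with a variance trend (10 residual and 3.19 prior degrees of freedom). Contrasts weight lines and sexes equally, and tests are two-sided. The procedure was tested on simulated data for C96Y against wild-type proinsulin. There, 10 of 100 changes of 0.1 log2 units and 63 of 100 of 0.3 were called in the right direction, with 4 false calls. Far fewer probe sets were changed in the simulation than were called in the data. The adjustment was therefore stricter there, and these shares do not carry over directly. Many differences near 0.1 may still go uncalled.

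Named are, per complex, the 4 members of smallest p in C96Y against wild-type proinsulin, the 3 largest called rises and falls in each other comparison, the members of highest and lowest mean, and up to 3 called genes per related list. Other members were named after their values were seen. The members, lists and tests were chosen with earlier results of these data known. Alternatives covered scaling, filter, variance trend, an added constant, replicate numbers as a block, other probe sets, and leaving out arrays or lines. Leaving out arrays high in fat body transcripts and using 1 mean per line were chosen after seeing the data.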

Additional observations from a re-analysis of the deposited data

Results flagged for a closer look

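In 140 sets of 4 arrays of a line (2 of males and 2 of females), over 28 named members, 11 held an outlying array. Its gap to the nearest of the others was above Dixon's 95% critical value as a share of the range, and chance gives about 1 in 20. UQCR-11 and UQCR-11L are among the 28 because their values had been seen. The count of 11 is therefore partly chosen and cannot be set against that rate. The lowest arrays concerned were Mut-101 male replicate 2 for ND-39 (3508 units, others 3808 to 3846) and ND-B14 (3573, others 3978 to 4015), WT-6 male replicate 2 for ND-B12 (3860, others 4463 to 4565) and ATPsynepsilonL (528, others 573 to 580), WT-6 male replicate 1 for Cyt-c1 (6289, others 6393 to 6404) and non-transgenic female replicate 1 for UQCR-11L (187, others 210 to 212). The highest were WT-6 female replicate 1 for ox (3597, others 3199 to 3251) and COX5B (6627, others 6146 to 6204), non-transgenic female replicate 1 for ND-75 (4759, others 4365 to 4430), WT-24 female replicate 1 for UQCR-11 (566, others 424 to 434) and Mut-101 male replicate 2 for UQCR-11L (335, others 189 to 201). Mut-101 male replicate 2 holds 3 of these 11 values, 1 of them that of UQCR-11L, and it also has the highest array median.

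Lines that carry the same transgene differed in Sdhaf3, by 0.56 on the log2 scale between Mut-1 and Mut-101 and by 0.61 between WT-24 and WT-6, both called by limma. Both calls were lost with the number in the sample descriptions as a block (limma, adjusted p = 0.387 and 0.998), though the differences stayed at 0.54 or more. That block takes up part of the contrast between lines. No other of the 56 tested members was called in either contrast.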

How the results depend on the processing

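Shares in parentheses are of all probe sets tested. For C96Y against wild-type proinsulin, 11 members (20.1%) were called as reported. Centring arrays on their medians left 4 (5.89%), and the count was 5 without Mut-1 (7.06%), 6 without WT-24 (10.2%), 7 with 1 mean per line and sex (7.71%) and 7 to 13 with 1 array left out in turn (14.5% to 21.0%), and it fell to 7 without WT-24 male replicate 2, Mut-101 female replicate 2 or Mut-1 male replicate 2. ATPsynCF6, RFeSP, COX8 and ox kept this call under each alternative that gave them a value except 1 mean per line, which called 0 members (0%). RFeSP has no second probe set above the filter, and its dim one gave -0.074 (limma, adjusted p = 0.429). Against non-transgenic discs the 6 calls (11.5%) became 1 with centred arrays (3.22%), 2 without Mut-1 (3.29%), 3 without the arrays high in fat body transcripts (5.02%), 0 with 1 mean per line (0%), and 4 to 7 with 1 array left out (5.57% to 11.8%), 4 being without non-transgenic female replicate 2. The 5 sex calls (12.3%) became 3 with no variance trend (13%), without Mut-1 (6.29%), without Mut-101 (6.46%) or without the fat-body arrays (6.93%), 2 without WT-24 (4.51%), and 3 to 7 with 1 array left out (6.92% to 14.8%), 3 being without Mut-101 female replicate 2. Glycolysis calls went from 7 to 4 with centred arrays and 0 with 1 mean per line. The single call between Mut-1 and Mut-101, Sdhaf3 (3.49%), became 2 with no filter (2.06%) and 1 to 2 with 1 array left out (1.63% to 4.77%), and that between WT-24 and WT-6, also Sdhaf3 (0.955%), became 0 with centred arrays (0.419%). Signs turned for ND-B16.6 between the sexes (-0.0035, centred arrays), Ald1 (-0.046, second probe set), UQCR-6.4 (-0.0044, without Mut-1), Sdhaf3 (-0.18 without Mut-1, -0.21 without WT-6) and SdhD (-0.00023 without Mut-101, -0.036 without WT-6, -0.0061 to 0.040 with 1 array left out). The cause was not tested.

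Deviations of arrays with the same title number in different groups had correlations of -0.47 to 0.29 (median -0.028, over 0.1 in 14 of 45 pairs), and with the same description number -0.38 to 0.29 (median -0.022, over 0.1 in 11 of 35). Neither number was taken to pair arrays, and the labels do not say what the description number marks. With the title number as a replicate block, 8 members (18.0%) were called in C96Y against wild-type proinsulin and 6 (9.78%) against non-transgenic discs. With the number in the sample descriptions as a block the counts were 5 (6.27%) and 3 (2.64%), then 1 between the sexes (3.57%), 0 between Mut-1 and Mut-101 (0.0487%) and 0 between WT-24 and WT-6 (0.0195%). Lines of the same transgene share these numbers only in part, so the block also takes up part of the contrast between them.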
